A study of Mus musculus with 30 samples.

Results

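The forkhead factors FoxK1 and FoxK2 were depleted one at a time and together in AML12 cells, and the question taken up here is which genes changed in the double knockdown by more or less than the effects of the single knockdowns added up. The measure is a deviation from additivity: the log2 fold change of double knockdown (DKD) against Control cells, minus the log2 fold change of FoxK1 KD and minus that of FoxK2 KD against the same Control cells. A deviation of 0 means that the effects added on the log2 scale. A gene above the sum had more RNA in DKD cells than the single effects together would give, and a gene below the sum had less. The contrast uses the 16 basal samples of the 30 in the series, 4 each without insulin from Control cells, from each single knockdown (FoxK1 KD, FoxK2 KD) and from DKD cells. It was tested on all 11368 genes that passed a filter on low counts, with no gene chosen by its values.

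AML12 is a mouse hepatocyte line. All 4 groups were transfected with siRNA and starved of serum overnight: Control cells received a nonspecific siRNA, FoxK1 KD and FoxK2 KD cells an siRNA against 1 factor, and DKD cells siRNA against both. Depletion was transient, and the sources do not say whether the total amount of siRNA was the same in DKD as in the single knockdowns, so a response to the amount of siRNA and to loss of both factors cannot be told apart. The basal samples carry a time of 0 h in the labels, whereas the study's text describes vehicle for the time of the insulin treatment. The other 14 samples are the same 4 groups after insulin (100 nM for 6 h), with 3 samples each for Control and DKD cells and 4 for the others, and they enter only the comparison at the end. The labels do not say whether samples came from separate experiments, and the study's general note on N gives no number for these libraries, so p-values measure the spread between these samples, which may be technical.

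FoxK1 and FoxK2 are forkhead transcription factors that share a DNA-binding domain and a forkhead-associated domain, and both recruit the Sin3 corepressor complex and the deubiquitinase BAP1. In mammalian cells they are known as repressors of autophagy genes under nutrient-rich conditions, as activators of glycolytic genes, and as partners of Dishevelled, which they carry into the nucleus. The 2 factors bind similar sequences, and each can in principle stand in for the other.

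Some libraries stood apart in ways the groups do not describe, and these are given before the results. Basal totals ranged from 2141460 to 5668270 counts. Within each library, the level of a gene relative to its mean over the libraries was ranked against the gene's GC content. The 4 DKD basal libraries had rank correlations (Spearman's rho across genes) of 0.20 to 0.44, above all 12 other basal libraries. Control replicate 1 had 0.18, whereas Control replicates 2 to 4 had -0.30 to -0.23, and FoxK1 KD replicate 2 was the lowest at -0.50. Transcripts of processed pseudogenes, intronless gene copies, took 0.193% to 0.223% of counts in DKD basal libraries and 0.143% to 0.173% in the other 12. Mitochondrial genome transcripts took 0.989% to 1.26% in DKD and 1.32% to 2.43% in the others. The hepatocyte identity of the line was visible in Hnf4a (89.6 to 148 CPM, counts scaled to a common library total) and Apob (253 to 819 CPM), while Alb reached only 65.2 CPM and Apoa1, Apoa2, Fgb and Cps1 were at 0 in some libraries. Bile duct markers were also present (Krt19, 323 to 753 CPM), Epcam was at 0 in every basal library, and summed fibroblast markers stayed at or under 1.41 CPM.

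The targeted genes were examined first. Foxk1 (chr5:142401497-142462011, GRCm38) was at 87.6, 83.5, 66.2 and 88.4 CPM in Control, 38.9, 27.4, 38.8 and 42 CPM in FoxK1 KD, 83.7, 71.5, 66.4 and 58 CPM in FoxK2 KD, and 44.2, 49.7, 49 and 42.9 CPM in DKD cells. All FoxK1 KD and DKD libraries lay below all Control and FoxK2 KD libraries, and every DKD library was above every FoxK1 KD library. Relative to Control, the fitted level was 45.5% after FoxK1 KD and 56.8% in the double knockdown, where the added single effects would give 38.8%. The deviation was 0.55 (SE 0.17, adjusted p = 0.031, quasi-likelihood test of edgeR after Benjamini-Hochberg adjustment, n = 4 per group), and it was 0.24 (adjusted p = 0.405) with an offset for each library's GC and length trend and 0.50 (adjusted p = 0.0582) without Control replicate 1. The call was also lost without FoxK1 KD replicate 2, FoxK2 KD replicate 4, or DKD replicate 1, 2 or 3, with a highest adjusted p of 0.0867.

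Foxk2 (chr11:121259990-121309896) was at 149.7, 145, 133 and 134 CPM in Control, 101, 116, 128 and 124 CPM in FoxK1 KD, 46.3, 49.4, 50.6 and 42.9 CPM in FoxK2 KD, and 52, 54.7, 52.3 and 41.9 CPM in DKD cells. FoxK2 KD and DKD libraries overlapped each other and lay below all libraries of the other groups. FoxK1 KD libraries lay below all Control libraries, at a fitted 83.5% of Control (edgeR adjusted p = 0.0487), and this effect is part of the sum. The level was 33.8% of Control in FoxK2 KD and 35.7% in DKD cells, and the deviation of 0.34 (95% interval 0.07 to 0.61) missed the threshold (edgeR adjusted p = 0.0731). Thus each target was lowered in the double knockdown, Foxk1 to a slightly higher level than in the single knockdown.

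Across the transcriptome, 1405 of 11368 genes (12.4%) departed from additivity at an adjusted p under 0.05. Of these, 773 genes (6.8%) were above the sum and 632 (5.56%) below it. The median size of a called deviation was 0.58 on the log2 scale, and 114 genes exceeded 1, a doubling or halving against the sum. The median deviation of all tested genes was 0.02, and the median standard error was 0.18. At an unadjusted p under 0.05 there were 3325 genes.

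In most called genes the DKD effect had the opposite sign to the summed single effects. This held for 1085 of the 1405 genes (77.2%), against 4445 of all 11368 tested. In a further 238 genes (16.9%) DKD cells moved in the direction of the sum but less far, and in 82 (5.84%) they moved farther. Since the sum and the deviation are computed from the same libraries, a large deviation favours the opposite pattern, and these counts are a description. Among genes above the sum the median effect was -0.28 in FoxK1 KD, -0.15 in FoxK2 KD and 0.20 in DKD cells. Among genes below the sum the corresponding medians were 0.21, 0.10 and -0.25.

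Single effects were called for part of these genes, counted here as a description. The deviation is computed from the same libraries, so part of each overlap with the single and DKD calls is built in. FoxK1 KD lowered 215 of the 773 genes above the sum, where 4.71% of all genes were called lower, and raised 124 of the 632 below the sum, where 3.39% of all genes were called higher. FoxK2 KD lowered 4 and raised 9 of them, with 0.167% and 0.211% of all genes called lower and higher. DKD cells had 222 of the 773 called higher (10.3% of all genes) and 263 of the 632 called lower (10.8%). All 4 DKD libraries lay above all 12 other basal libraries for 438 genes (3.85%), 162 of them among the 773. They lay below all 12 for 409 genes (3.6%), 156 of them among the 632.

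**Figure D1:**
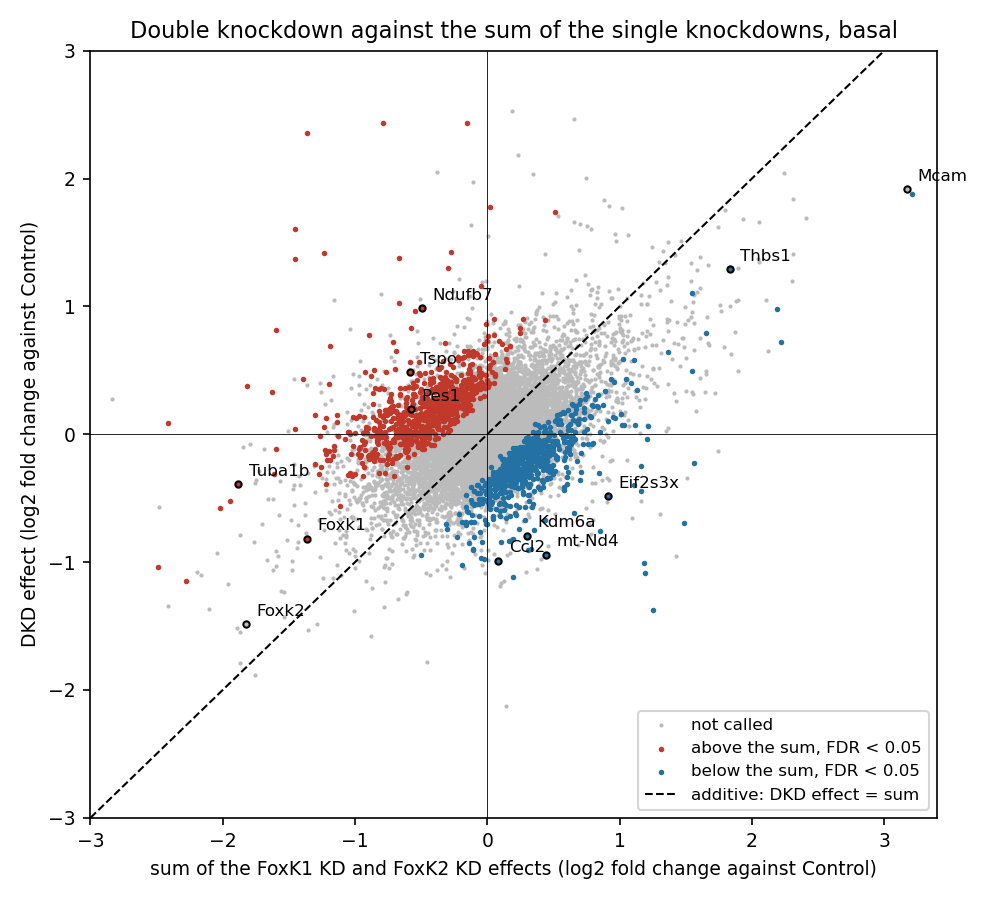
Each point is a tested gene, with the sum of the FoxK1 KD and FoxK2 KD effects on the horizontal axis and the DKD effect on the vertical axis, both as log2 fold change against Control. Red genes (773) are above and blue genes (632) below the dashed line on which effects add; most red points have a negative sum and most blue points a positive one, and 17 genes are outside the axes.

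The deviation followed the GC content of the gene. Across genes, Spearman's rho between the deviation and GC content was 0.57, against -0.22 for the FoxK1 KD effect, -0.11 for the FoxK2 KD effect and 0.46 for the DKD effect. Among the 1135 genes of lowest GC content (31.2% to 42.5% GC) the median deviation was -0.32, with 5 genes above and 227 below the sum. Among the 1135 of highest GC content (58.0% to 73.7% GC) the median was 0.37, with 244 above and 2 below. Median GC content was 56.6% for genes above the sum, 44.0% for genes below it and 50.3% for all.

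With an offset that takes out the smooth trend of each library on GC content and length, 285 genes were called (2.51%), 153 above (1.35%) and 132 below the sum (1.16%). Of the original calls, 125 above and 99 below were called again, and 762 of 773 and 624 of 632 kept their sign. When Control replicate 1 was left out without any offset, 898 genes (7.9%) were called, 421 above and 477 below. Both steps together left 81 above and 107 below, an analysis chosen after seeing the data. Leaving out FoxK1 KD replicate 2 gave 421 above and 286 below, leaving out FoxK2 KD replicate 1 gave 457 and 320, and leaving out DKD replicate 1 gave 440 and 339. A GC trend of the libraries that arose in preparation and one that arose in the cells cannot be told apart here, and for that reason values with the offset are given beside most genes and lists below.

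**Figure D2:**
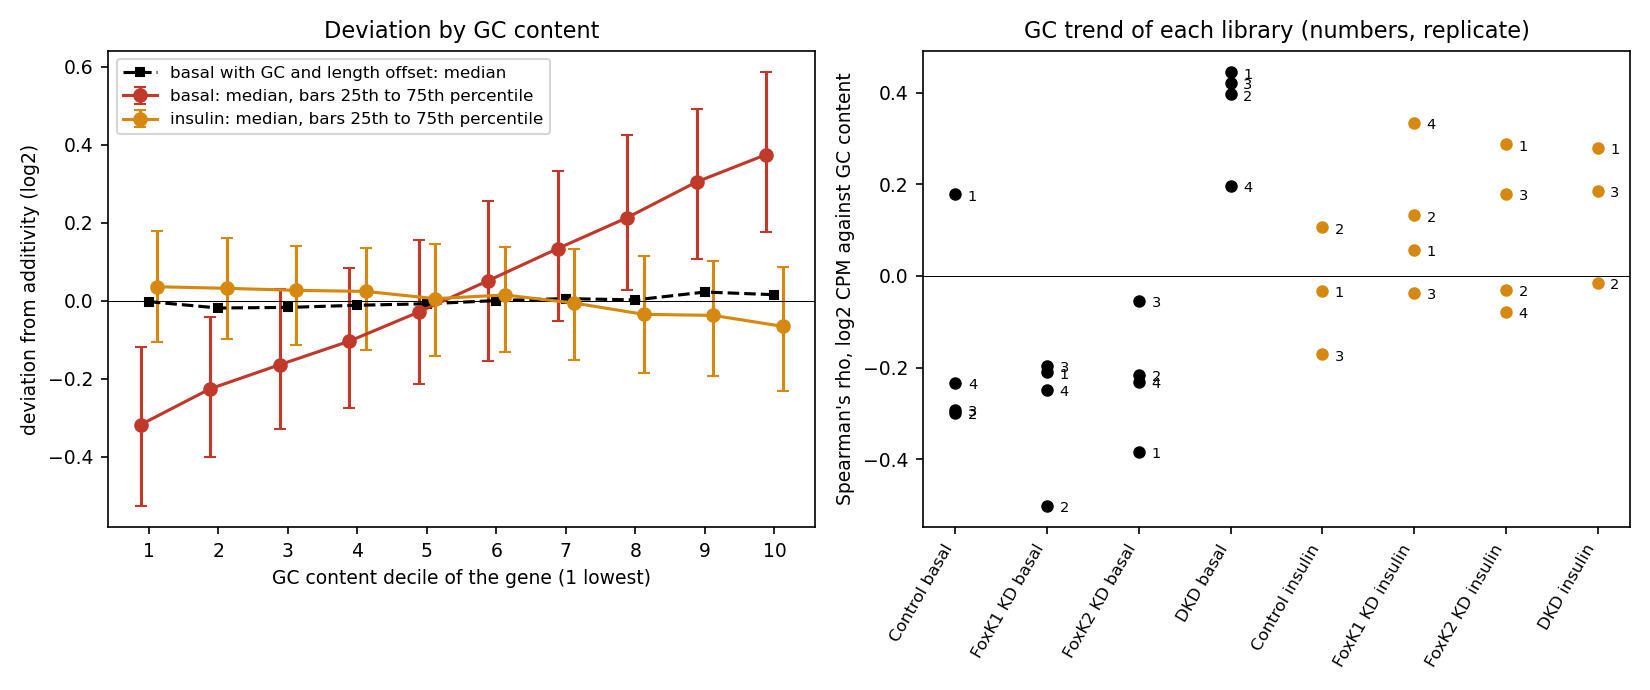
Left, median deviation from additivity (log2) in 10 bins of genes ordered by GC content, in basal (red) and insulin-treated cells (orange) with bars from the 25th to the 75th percentile, and in basal cells with the GC and length offset (black squares); the basal medians run from -0.32 to 0.37 and the others stay near 0. Right, Spearman's rho of each library's relative log2 CPM with GC content, with replicate numbers beside the points; the 4 DKD basal libraries sit at 0.20 to 0.44 and Control replicate 1 at 0.18.

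Without the offset, glycolysis was the list with the highest median deviation among the 36 described. Called members were 40.7% of it, against 12.4% of all tested genes, a share that was 2.51% with the offset. Of 27 tested genes of glycolysis and lactate export, 11 were above the sum and 0 below, and their median deviation was 0.39 against 0.02 for all genes. They included the glucose transporter Slc2a1, the enzymes Tpi1 (0.82, SE 0.20), Aldoa (0.69, SE 0.20) and Pkm (0.67, SE 0.16), and lactate dehydrogenase Ldha (0.74, SE 0.15). Eno1 and its near-identical copy Eno1b were also called, and reads shared between such copies make both uncertain. FoxK1 KD lowered 11 of the 27 genes and raised 0, FoxK2 KD changed 0 in either direction, and DKD raised 2 and lowered 4. With the offset 3 were above the sum and 0 below, with a median of 0.18, lower than those of DNA replication (0.24), cholesterol synthesis (0.21), endoplasmic reticulum chaperones (0.20) and histones (0.20), and without Control replicate 1 the counts were 9 and 0.

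Slc2a1 (chr4:119108711-119137983), the main glucose carrier of many cell lines, shows the pattern in single libraries. It was at 142, 109.8, 116 and 94.1 CPM in Control, 74.4, 56.4, 72 and 86.7 CPM in FoxK1 KD, 104, 101, 113 and 96.1 CPM in FoxK2 KD, and 117, 137, 116 and 111 CPM in DKD cells. Only the FoxK1 KD libraries were set apart, below all others, while DKD libraries lay within or close to the Control range. DKD cells were at 105% of Control where the sum gives 57%, a deviation of 0.88 (SE 0.16, edgeR adjusted p = 0.00152; 0.59 and adjusted p = 0.0213 with the offset).

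**Figure D3:**
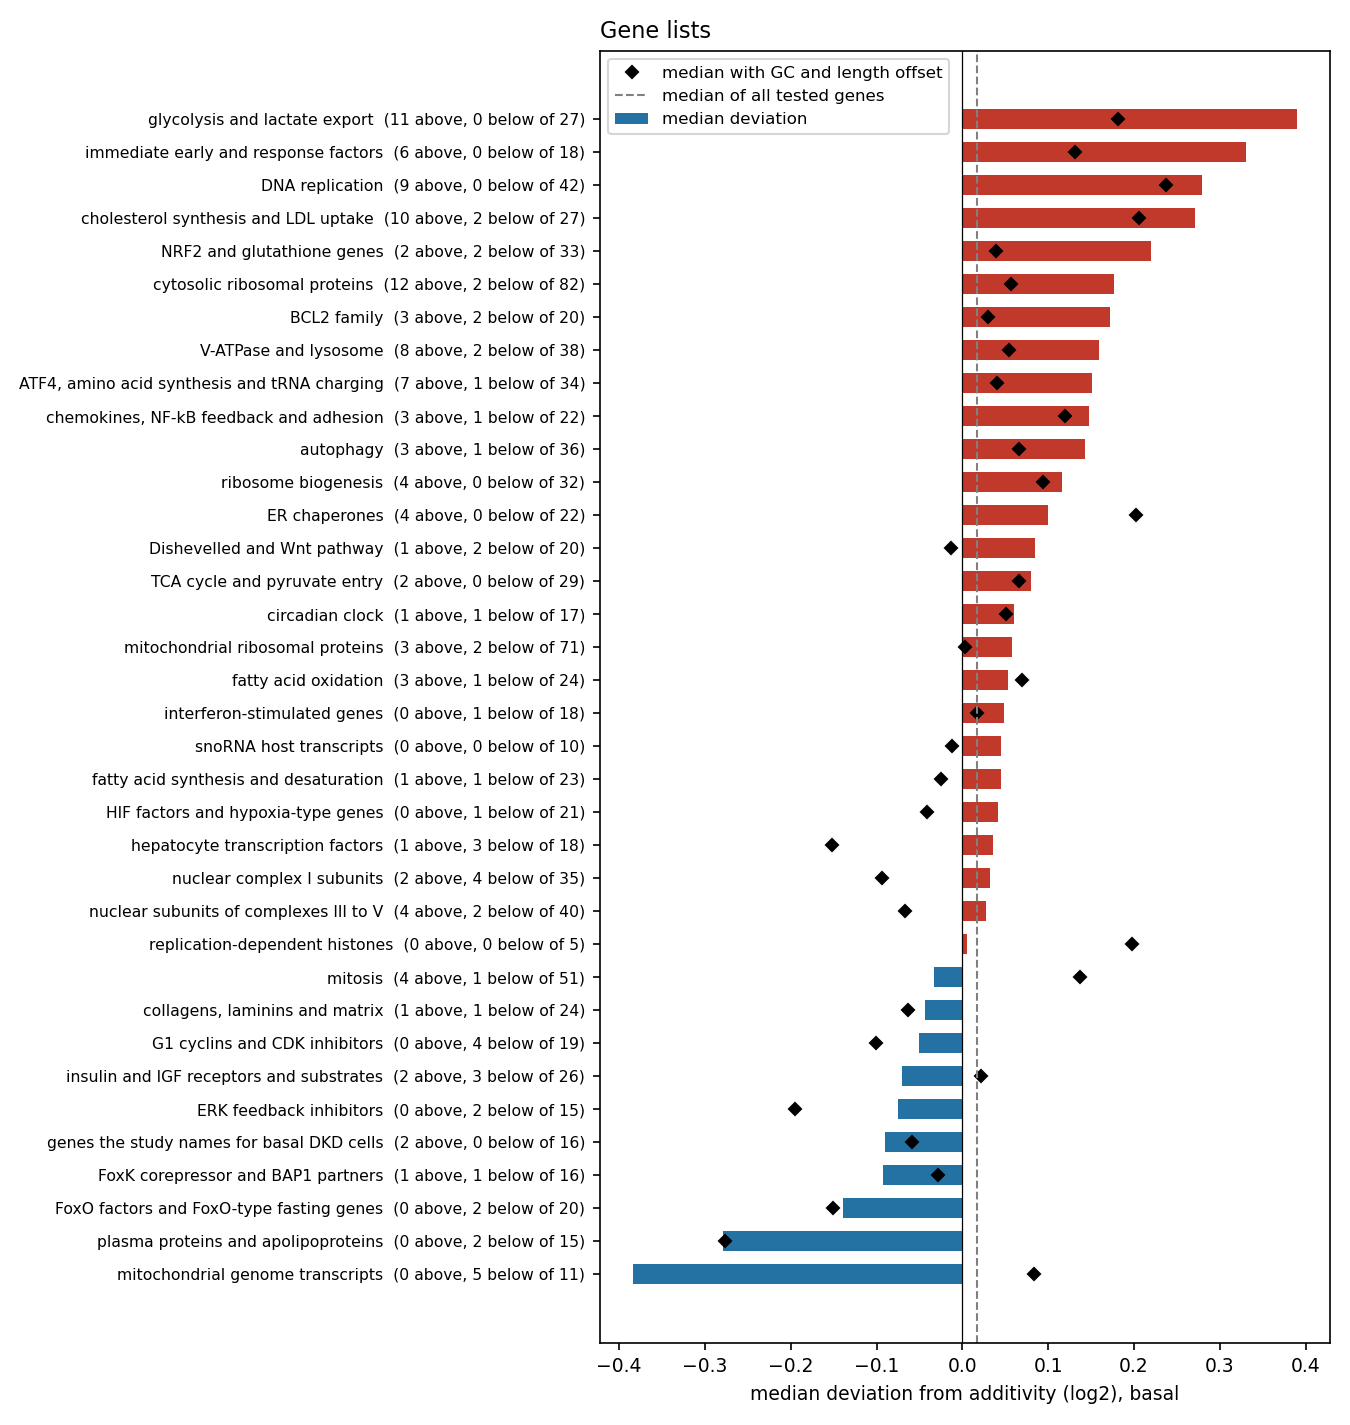
Median deviation from additivity (log2) of the tested members of each list in basal cells (bars; red above and blue below 0), with the median after the GC and length offset (diamonds) and the median of all tested genes (dashed line); the numbers beside each name count members called above and below the sum. Glycolysis is at 0.39 and mitochondrial genome transcripts at -0.38, and the diamond of the latter is at 0.08.

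Cholesterol synthesis and LDL uptake followed the same course. Of 27 tested genes 10 were above the sum (among them Pmvk, Mvd, Ebp, Fdps, Acat2, Mvk, Srebf2, Fdft1 and Lss) and 2 below (Ggps1 and Sc5d), with a median deviation of 0.27. These are 44.4% of the members, against 12.4% of all genes. FoxK1 KD lowered 16 of the 27 genes, DKD lowered 11 and raised 1, and FoxK2 KD changed 0. The offset left 5 above and 0 below, with a median of 0.21, and without Control replicate 1 there were 9 above and 1 below. Srebf2, the transcription factor that drives this pathway, had a deviation of 0.46 (SE 0.11, edgeR adjusted p = 0.00611), which was 0.13 (adjusted p = 0.434) with the offset.

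Mvd (chr8:122433601-122443422), mevalonate diphosphate decarboxylase, had the smallest p among genes above the sum. Its levels were 201, 143, 187 and 153 CPM in Control, 112, 93.1, 109 and 109 CPM in FoxK1 KD, 147, 151, 143 and 138 CPM in FoxK2 KD, and 159.9, 183, 159.6 and 151 CPM in DKD cells. FoxK1 KD libraries were below all others, and DKD libraries lay within the range of Control. The deviation was 0.86 (SE 0.13, edgeR adjusted p = 0.000274), and DKD cells were at 95.7% of Control where the sum gives 52.7%. It was 0.50 (adjusted p = 0.0231) with the offset and 0.76 (adjusted p = 0.000359) without Control replicate 1.

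Pmvk, phosphomevalonate kinase, which acts one step earlier, was at 121, 60.8, 72.9 and 55.4 CPM in Control, 47.3, 39.9, 55.3 and 44.4 CPM in FoxK1 KD, 57.7, 69.7, 78.7 and 71.7 CPM in FoxK2 KD, and 83.6, 75.3, 91.6 and 81.6 CPM in DKD cells. Control replicate 1 was the highest library of all 16. The deviation of 0.95 (SE 0.22, edgeR adjusted p = 0.0063) was 0.64 both with the offset (adjusted p = 0.0522) and without that library (adjusted p = 0.0151).

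Of 42 DNA replication genes, 9 were called above (E2f1, Cdt1, Rfc2, Pold1, Uhrf1, Mcm7, E2f8, Mcm5 and Mcm3) and 0 below, with a median of 0.28. That is 21.4% of the members, against 12.4% of all genes. The count above depended on Control replicate 1, without which it was 2, and it was 0 with the offset, where the median was still 0.24. FoxK1 KD lowered 14 of the 42 and DKD lowered 5 and raised 2. E2f1, a transcription factor of S-phase entry, was at 62.7, 29.8, 22.6 and 23.6 CPM in Control, 23.5, 21.8, 20.2 and 21.1 CPM in FoxK1 KD, 23.2, 23.8, 29.4 and 27.5 CPM in FoxK2 KD, and 42.5, 42.2, 32.4 and 31.3 CPM in DKD cells. All DKD libraries exceeded every other library except Control replicate 1. The deviation was 1.16 (SE 0.27, edgeR adjusted p = 0.00721), 0.71 (adjusted p = 0.0106) without that library, and 0.87 (adjusted p = 0.0571), no longer called, with the offset.

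Of 51 mitosis genes, 4 were above the sum (Aurkb, Incenp, Aurka and Cdca3) and 1 below (Cenpk), with a median of -0.03 that became 0.14 with the offset. The called share was 9.8%, under the 12.4% of all genes. FoxK1 KD lowered 12 of the 51 and raised 0. DKD lowered 21 and raised 0, where 10.8% of all genes were called lower, and the median DKD effect was -0.27. Aurkb, the kinase of the chromosomal passenger complex, had a deviation of 0.97 (SE 0.19, edgeR adjusted p = 0.00219; 0.84 and adjusted p = 0.00631 with the offset). Relative to Control it was at 70.2% in FoxK1 KD, 75.5% in FoxK2 KD and 104% in DKD, against a sum of 53%. Among G1 cyclins and CDK inhibitors 0 of 19 were above and 4 below, namely Ccng1, Ccnd2, Cdkn1b and Rbl2, against 2 below with the offset, where Ccnd1 was called, Ccnd2 was called again (-0.79, adjusted p = 0.00631) and Ccng1, Cdkn1b and Rbl2 were not. Without the offset 21.1% of this list was called. Ccnd2 (cyclin D2) was raised by 0.56 in FoxK1 KD and by 0.43 in DKD cells, a deviation of -0.62 (SE 0.14, edgeR adjusted p = 0.00689). Cdkn1b (p27) hardly moved in either single knockdown (0.01 and 0.03) and fell by 0.53 in DKD cells, a deviation of -0.57 (adjusted p = 0.00931) that was -0.33 (adjusted p = 0.104) with the offset.

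Immediate early and response factors had 6 of 18 genes above the sum (Fosl1, Atf3, Srf, Klf5, Ier5 and Maff) and 0 below, a median of 0.33, with 2 above under the offset and 3 without Control replicate 1. The 6 are 33.3% of the members, against 12.4% of all genes. FoxK1 KD lowered 5 of the 18. Fosl1, an AP-1 subunit with low counts here, was 49.2% of Control in FoxK1 KD, 66.6% in FoxK2 KD and 80.6% in DKD cells, against 32.7% by the sum. Its deviation was 1.30 (SE 0.32, edgeR adjusted p = 0.00904), and 0.89 (adjusted p = 0.118) with the offset.

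Protein synthesis and folding genes are given by 4 lists, beside 6.8% above and 5.56% below among all tested genes. Of 82 cytosolic ribosomal protein genes 12 were above and 2 below (5 and 0 with the offset, 7 and 2 without Control replicate 1), of 32 ribosome biogenesis genes 4 and 0, of 22 endoplasmic reticulum chaperone genes 4 and 0, and of 34 ATF4, amino acid synthesis and tRNA charging genes 7 and 1. In all, 17.1%, 12.5%, 18.2% and 23.5% of the members were called, against 12.4% of all genes. Their medians were 0.18, 0.12, 0.10 and 0.15, and with the offset the last 3 lists had 1 and 0, 0 and 0, and 3 and 0. Processed copies of ribosomal protein genes are common in the mouse genome, so reads of individual members may be split.

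Pes1 (chr11:3963975-3980004), a factor of large ribosomal subunit assembly, was at 202, 194, 187 and 194 CPM in Control, 161, 119, 158 and 176 CPM in FoxK1 KD, 163, 168, 155 and 167 CPM in FoxK2 KD, and 226, 245, 206 and 211 CPM in DKD cells. Both single knockdowns were below all Control libraries and DKD was above them, without overlap. The deviation was 0.78 (SE 0.13, edgeR adjusted p = 0.000737), and 0.77 (adjusted p = 0.00108) with the offset.

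Lysosome and autophagy genes gave 8 above and 2 below of 38 V-ATPase and lysosome genes, and 3 above (Becn1, Map1lc3b and Sqstm1) and 1 below (Rb1cc1) of 36 autophagy genes. These are 26.3% and 11.1% of the members, against 12.4% of all genes. With the offset the counts were 2 and 0, and 1 and 0. Becn1 (chr11:101285952-101302286), which encodes Beclin 1 of the autophagy-initiating lipid kinase complex, was at 180.3, 131, 132 and 131 CPM in Control, 112, 107, 126 and 135 CPM in FoxK1 KD, 119, 148, 116 and 124 CPM in FoxK2 KD, and 185, 182, 167 and 187 CPM in DKD cells. DKD libraries exceeded all others except Control replicate 1. Its deviation was 0.76 (SE 0.14, edgeR adjusted p = 0.00152), 0.63 (adjusted p = 0.00631) with the offset and 0.62 (adjusted p = 0.00268) without that library.

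Cell death genes were called in both directions, 3 above the sum (among them Bax and Bid) and 2 below (Xiap and Apaf1) of 20 in the BCL2 family list. That is 25% of the members, against 12.4% of all genes. Xiap, an inhibitor of apoptosis, had a deviation of -0.70 (SE 0.17, edgeR adjusted p = 0.00934), which was -0.43 (adjusted p = 0.0872) with the offset.

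Transcripts of the mitochondrial genome were called only below the sum, and nuclear mitochondrial genes in both directions. Of 11 transcripts of the mitochondrial genome 0 were above the sum and 5 below (mt-Nd4, mt-Co1, mt-Nd5, mt-Nd2 and mt-Cytb), with a median of -0.38. That median was 0.08 with the offset, where 1 was below. Without the offset 45.5% of this list was called, against 12.4% of all genes. Nuclear complex I genes gave 2 above and 4 below of 35, nuclear genes of complexes III to V 4 and 2 of 40, and mitochondrial ribosomal proteins 3 and 2 of 71. In that order, 17.1%, 15% and 7.04% of the members were called. mt-Nd4, a complex I subunit, was at 676, 1051, 1264 and 1320.2 CPM in Control, 1345, 1714, 1008 and 1093 CPM in FoxK1 KD, 1276, 1241, 1225 and 1158 CPM in FoxK2 KD, and 428, 623, 649 and 549 CPM in DKD cells. DKD libraries were below all 12 others, of which Control replicate 1 was the lowest. The deviation was -1.38 (SE 0.23, edgeR adjusted p = 0.000637), and -0.96 (adjusted p = 0.00188) with the offset. The mitochondrial ribosomal RNA mt-Rnr2 had -1.61 (SE 0.29, adjusted p = 0.00124; -1.15 and adjusted p = 0.00721 with the offset).

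Single nuclear genes for mitochondrial proteins went both ways. Ndufb7, a complex I subunit, was at 35.2, 29.8, 30.3 and 17.1 CPM in Control, 23.3, 12.5, 23.3 and 23 CPM in FoxK1 KD, 21.3, 30.4, 29.4 and 21.3 CPM in FoxK2 KD, and 51.4, 46, 51.8 and 67.8 CPM in DKD cells, where all libraries were above all others. Its deviation was 1.48 (SE 0.32, edgeR adjusted p = 0.00433; 1.25 and adjusted p = 0.0319 with the offset). Ndufa1, another complex I subunit, was 128% of Control in each single knockdown and 81.4% in DKD cells, 2.01-fold below the sum (adjusted p = 0.0104; -0.94 on the log2 scale and adjusted p = 0.0231 with the offset). Atp5g2, a c-subunit of ATP synthase, had 1.14 (SE 0.21, adjusted p = 0.00152; 0.82 and adjusted p = 0.0136 with the offset), and Immp1l, a peptidase of the inner membrane, had -1.10 (SE 0.30, adjusted p = 0.0161; adjusted p = 0.0929 with the offset).

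In lists of genes around the FoxK proteins the called shares lay on both sides of the 12.4% of all tested genes. They were 12.5% of corepressor and BAP1 partners, 15% of the Dishevelled and Wnt list and 19.2% of insulin and IGF pathway genes. For FoxO factors and fasting genes the share was 10%, and each of these shares rests on few genes. Of 16 corepressor and BAP1 partners 1 was above the sum (Sin3b, 0.59, SE 0.16, adjusted p = 0.0149) and 1 below (Ogt, the O-GlcNAc transferase, -0.67, SE 0.19, adjusted p = 0.022), and neither was called with the offset. The call of Ogt was also lost without FoxK1 KD replicate 2 (adjusted p = 0.0729), FoxK2 KD replicate 1 (0.0559) or DKD replicate 1 (0.0566). In the Dishevelled and Wnt list of 20 genes, Dvl2 was above (0.66, SE 0.16, adjusted p = 0.00743), and Apc and Lrp6 were below. Of 26 insulin and IGF pathway genes, Pik3r2 and Akt1 were above and Igf2r, Pik3ca and Gsk3b below. With the offset 0 were called in the corepressor, Wnt and insulin lists. Igf2r fell short of the threshold without any 1 of 6 libraries, among them Control replicate 1 (-0.47, adjusted p = 0.0653). FoxO factors and fasting genes had 0 above and 2 below of 20 (10%), with 0 under the offset.

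In the remaining lists between 0% and 22.2% of the tested members were called, on both sides of the 12.4% of all genes. Counts above and below were 0 and 2 of 15 ERK feedback inhibitors, 1 and 1 of 23 fatty acid synthesis genes, 3 and 1 of 24 fatty acid oxidation genes, 0 and 1 of 21 HIF and hypoxia genes and 2 and 0 of 29 citrate cycle genes. They were 2 and 2 of 33 NRF2 and glutathione genes, 0 and 1 of 18 interferon-stimulated genes, 3 and 1 of 22 chemokine and NF-kB genes, 1 and 1 of 24 matrix genes and 1 and 3 of 18 hepatocyte transcription factors, the list with the 22.2%. Plasma proteins and apolipoproteins had 0 and 2 of 15, clock genes 1 and 1 of 17, snoRNA host transcripts 0 and 0 of 10 and histones 0 and 0 of 5. In the NRF2 list Gclc, the catalytic subunit of glutamate-cysteine ligase, was raised by both single knockdowns (131% and 127% of Control) and was at 113% in DKD cells, a deviation of -0.55 (SE 0.10, edgeR adjusted p = 0.00175) that was -0.60 (adjusted p = 0.00188) with the offset.

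Several genes below the sum with the smallest p were lower in DKD cells than in any other basal group. Kdm6a (chrX:18162575-18279936), a histone H3 lysine demethylase, was at 127, 132, 159 and 158 CPM in Control, 151, 174, 138 and 164 CPM in FoxK1 KD, 165, 149, 154 and 186 CPM in FoxK2 KD, and 78.1, 81.2, 79.6 and 92.9 CPM in DKD cells. The other 3 groups overlapped one another and DKD lay below all of them. The deviation was -1.09 (SE 0.13, edgeR adjusted p = 4.44e-06), and -0.88 (adjusted p = 3.63e-05) with the offset.

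Ccl2 (chr11:82035571-82037453), the monocyte chemoattractant chemokine, was at 1484, 1404, 1616 and 1475 CPM in Control, 1442, 1754, 1069 and 1186 CPM in FoxK1 KD, 1815, 1714, 1650.1 and 1775 CPM in FoxK2 KD, and 665, 763, 819.9 and 769 CPM in DKD cells. DKD cells were at 50.4% of Control without overlap, whereas the sum gives 106%. The deviation was -1.07 (SE 0.16, edgeR adjusted p = 0.000274), and -0.89 (adjusted p = 0.000836) with the offset. In contrast, Relb, an NF-kB subunit of the same list, was above the sum (adjusted p = 0.000847; 0.64 and adjusted p = 0.0143 with the offset), with 63.9% of the Control level after FoxK1 KD and 119% in DKD cells, where the sum gives 59.7%.

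Snrnp48, a protein of the minor spliceosome, was at 41.1, 36.5, 33 and 43.7 CPM in Control, 32.6, 46.9, 35.8 and 40.9 CPM in FoxK1 KD, 45.4, 44.5, 36.1 and 47.5 CPM in FoxK2 KD, and 22.4, 18, 19.4 and 26.2 CPM in DKD cells. The single knockdowns overlapped Control and DKD was below all of them, a deviation of -0.99 (SE 0.20, edgeR adjusted p = 0.00257; -0.78 and adjusted p = 0.0137 with the offset).

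In Kcnj16 the single knockdowns were above Control, and DKD cells were close to it. The gene (chr11:110968033-111027968), which encodes an inward-rectifier potassium channel subunit, was at 323, 434, 401 and 443 CPM in Control, 546, 637, 544 and 504 CPM in FoxK1 KD, 526, 487, 486 and 506 CPM in FoxK2 KD, and 379, 384, 367 and 398 CPM in DKD cells. Both single knockdowns lay above all Control and DKD libraries. The deviation was -0.87 (SE 0.12, edgeR adjusted p = 4.66e-05), with DKD at 95.4% of Control and a sum of 174%, and -0.57 (adjusted p = 0.00117) with the offset. Fnip1, a folliculin partner in nutrient sensing, had -0.79 (SE 0.12, adjusted p = 0.000351), and -0.38 (adjusted p = 0.0519) with the offset.

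Tlr1, a Toll-like receptor, was at 9.36, 10.5, 10.2 and 8.04 CPM in Control, 10.2, 16.2, 12.2 and 17.7 CPM in FoxK1 KD, 14.2, 14.1, 14.9 and 12.7 CPM in FoxK2 KD, and 10.3, 10.2, 11.1 and 8.47 CPM in DKD cells. Control and DKD overlapped, and FoxK2 KD was above both. The deviation was -1.05 (SE 0.23, edgeR adjusted p = 0.00402; -0.85 and adjusted p = 0.0319 with the offset). After insulin it was -1.13 (SE 0.28), which did not pass over all genes (adjusted p = 0.504).

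**Figure D4:**
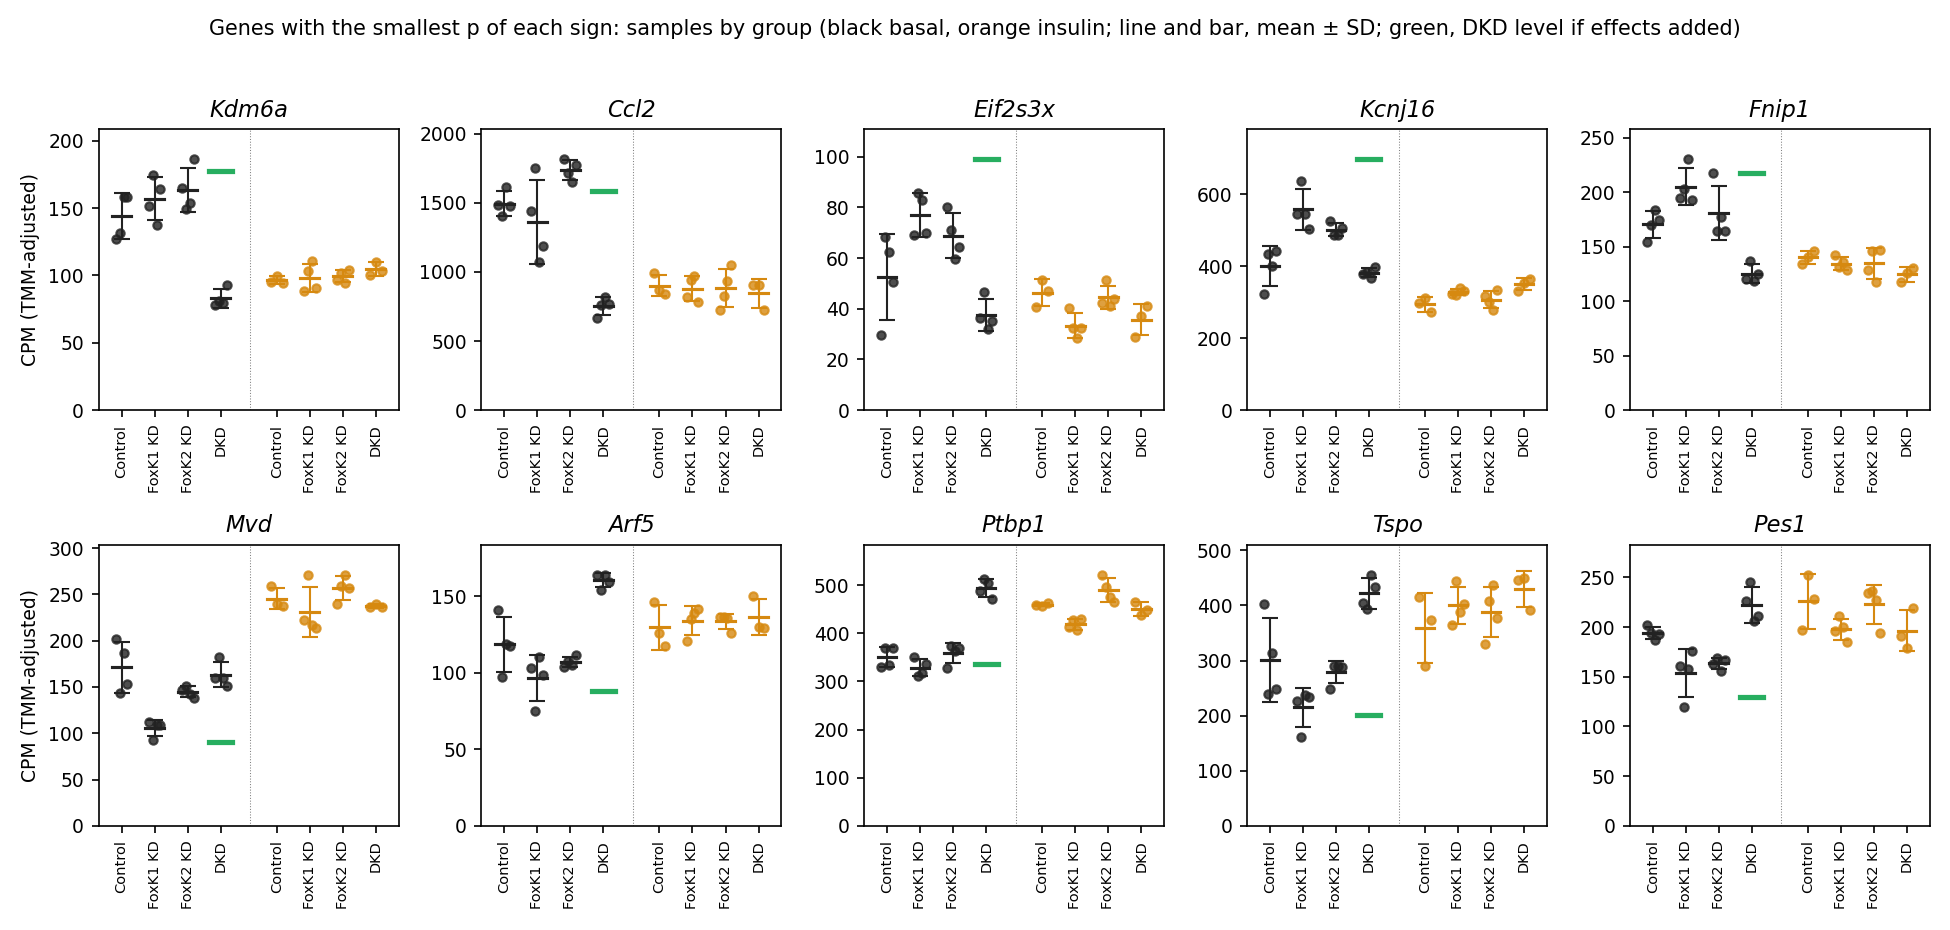
CPM in every library for the 5 genes with the smallest p below the sum (top) and above it (bottom), in basal (black) and insulin-treated cells (orange), with group mean and SD; the green line is the DKD basal level that the single effects would give when added. The basal DKD libraries lie below the green line in the top row and above it in the bottom row, as for Ccl2 (665 to 819.9 CPM) and Pes1 (206 to 245 CPM).

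Further genes above the sum rose in DKD cells beyond every other basal library. Arf5 (chr6:28423560-28426602), a small GTPase of the Golgi, was at 141, 97.3, 119 and 117 CPM in Control, 103, 75.3, 110.1 and 98.2 CPM in FoxK1 KD, 104, 108, 105 and 111 CPM in FoxK2 KD, and 164, 154, 164 and 159 CPM in DKD cells. DKD libraries were above all others, a deviation of 0.87 (SE 0.14, edgeR adjusted p = 0.00039; 0.46 and adjusted p = 0.0213 with the offset). Ptbp1, a repressor of alternative exons, was between 311 and 374 CPM in the other 12 libraries and at 488, 513, 504 and 471 CPM in DKD cells. Its deviation was 0.56 (SE 0.09, adjusted p = 0.000642), which was 0.26 (adjusted p = 0.136) with the offset.

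Tspo, a transporter-like protein of the outer mitochondrial membrane, was at 403, 239.5, 314 and 248 CPM in Control, 226, 161, 237 and 235 CPM in FoxK1 KD, 249, 290.2, 290.3 and 289 CPM in FoxK2 KD, and 405, 394, 455 and 434 CPM in DKD cells. DKD libraries exceeded all others except Control replicate 1, which overlapped them. The deviation was 1.07 (SE 0.18, edgeR adjusted p = 0.0007), 0.70 (adjusted p = 0.0129) with the offset and 0.89 (adjusted p = 0.000931) without that library. Emc8, a subunit of the endoplasmic reticulum membrane complex, was at 93.7% and 103% of Control in the single knockdowns and at 224% in DKD cells, a deviation of 1.21 (SE 0.27, adjusted p = 0.00501; adjusted p = 0.0556 with the offset).

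The largest deviations of protein-coding genes above the sum rested partly on Control replicate 1. Tuba1b, an alpha-tubulin with near-identical paralogs, was at 422, 124, 146 and 106 CPM in Control, 92.5, 72, 88.7 and 88.8 CPM in FoxK1 KD, 130.3, 121, 129.9 and 113 CPM in FoxK2 KD, and 134, 145, 178 and 151 CPM in DKD cells. Its deviation of 1.49 (SE 0.34, edgeR adjusted p = 0.0063) was 0.81 (adjusted p = 0.00835) without that library and 1.16 (adjusted p = 0.036) with the offset. Ptms, which encodes parathymosin, was at 1437 CPM in that library and at 419 to 501 CPM in the other Control libraries. The deviation there was 1.49 (SE 0.37, adjusted p = 0.00981), 0.87 (adjusted p = 0.0375) without it, and 1.07 (adjusted p = 0.0684), no longer called, with the offset.

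FoxK2 KD contributed a called single effect to few of these genes. Lamb3 (chr1:193207699-193343878), the beta-3 chain of laminin-332, was at 97, 112, 111 and 90.9 CPM in Control, 98.7, 95.4, 96.2 and 86.4 CPM in FoxK1 KD, 75.3, 68.7, 66.1 and 66.6 CPM in FoxK2 KD, and 95, 106, 96.7 and 103 CPM in DKD cells. FoxK2 KD libraries were below all others, and DKD was within the Control range. FoxK2 KD lowered it by 0.57 on the log2 scale, and the deviation was 0.66 (SE 0.11, edgeR adjusted p = 0.000847; 0.49 and adjusted p = 0.0231 with the offset).

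Thbs1 (thrombospondin 1), a matrix glycoprotein, was an example of an increase smaller than the sum. It was at 24.1, 25.8, 25.1 and 25.9 CPM in Control, 67, 74.3, 63.3 and 71.7 CPM in FoxK1 KD, 35.5, 33.9, 32.4 and 30.8 CPM in FoxK2 KD, and 51.4, 78.2, 54.1 and 62.1 CPM in DKD cells. DKD and FoxK1 KD overlapped, and both were above the other groups. The single effects of 1.45 and 0.39 add to 1.84, whereas the DKD effect was 1.29, and the deviation was -0.55 (SE 0.16, edgeR adjusted p = 0.0261; adjusted p = 0.0818 with the offset). It missed the threshold without FoxK1 KD replicate 2, FoxK2 KD replicate 1, or DKD replicate 1 or 3 (-0.47 to -0.51, highest adjusted p = 0.0678).

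Of 16 genes that the study itself names for basal DKD cells, a list chosen on these samples, 2 departed from the sum (12.5%, against 12.4% of all genes), both above it. With the offset 1 was above and 3 were below: Alpl, alkaline phosphatase (-0.65, adjusted p = 0.0375), the adhesion receptor Adgrg1 (-0.45, adjusted p = 0.0458) and Ccnd1. Without the offset Alpl had -0.34 (adjusted p = 0.189) and Adgrg1 -0.15 (adjusted p = 0.411). Mtch1, a carrier-like protein of the outer mitochondrial membrane, was at 188, 129, 132 and 131 CPM in Control, 121, 113, 113 and 122 CPM in FoxK1 KD, 125, 153, 152 and 144 CPM in FoxK2 KD, and 212, 201, 213 and 187 CPM in DKD cells, where only Control replicate 1 reached the DKD range. The deviation was 0.80 (SE 0.15, edgeR adjusted p = 0.00152; adjusted p = 0.0137 with the offset). Letm1, an ion exchanger of the inner mitochondrial membrane, was between 64 and 79.3 CPM in the other 12 libraries and at 92.5, 92.2, 97.2 and 91.1 CPM in DKD cells, without overlap. Its deviation was 0.52 (SE 0.12, adjusted p = 0.00548; adjusted p = 0.0513 with the offset).

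Scd1 (0.30, edgeR adjusted p = 0.0588), Scd2 (-0.24, adjusted p = 0.083) and mt-Nd6 (-0.38, adjusted p = 0.0973) missed the threshold. With the offset Scd1 was -0.025 and mt-Nd6 0.084. Of the other genes of this list detailed in this paragraph, all but Ccnd1 and Mcam had an interval without the offset that held 0. The offset moved some of the values. Vcam1, an adhesion molecule, was at 48.5% of Control in FoxK1 KD, 102% in FoxK2 KD and 53.6% in DKD cells, where the sum gives 49.4%, and its deviation was 0.12 (95% interval -0.11 to 0.35), against 0.43 (adjusted p = 0.0603) with the offset. Tgoln1, a trans-Golgi membrane protein, had a deviation of 0.10 (-0.12 to 0.33), and 0.42 (adjusted p = 0.0588) with the offset. Mfn2, the mitofusin of mitochondrial fusion, had 0.11 (-0.15 to 0.37) and the elongation factor component Aff4 -0.16 (-0.38 to 0.05), which were -0.093 and -0.023 with the offset. Wdr45, an autophagy protein of the X chromosome, was at 134% and 140% of Control in the single knockdowns and 184% in DKD cells, against 188% by the sum, a deviation of -0.03 (-0.41 to 0.34) that was -0.30 (adjusted p = 0.312) with the offset. Ccnd1 (cyclin D1) rose in all 3 knockdowns, to 160%, 128% and 167% of Control. Its deviation of -0.29 (SE 0.11, adjusted p = 0.0676) missed the threshold, and with the offset it was -0.57 (adjusted p = 0.00671). Mcam, a low-count adhesion gene, had the widest interval, -1.25 (-2.15 to -0.35, adjusted p = 0.0531; adjusted p = 0.0548 with the offset).

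The same contrast in the 14 insulin-treated samples, none of which enter the basal contrast, gave 0 called genes (0%) with edgeR, 0 with DESeq2, 0 with limma-voom, 1 with limma on linear CPM, and 7 above and 6 below with edgeR when a single count in 1 library sufficed for a gene to be tested. At an unadjusted p under 0.05 there were 575 genes, against 3325 in basal cells, and the median standard error was similar (0.20 against 0.18). The median deviation after insulin was 0.00 for the 773 genes above the basal sum and 0.02 for the 632 below it.

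The difference between the basal and the insulin deviation was tested itself and passed for 33 genes (0.29%), 15 of them above and 18 below in basal cells. All 33 were among the 1405 basal calls, an overlap that the contrast favours, since the basal deviation is part of the difference. At an unadjusted p under 0.05 there were 2058 genes. Kdm6a had a basal deviation of -1.09 and an insulin deviation of 0.04, a difference of -1.14 (edgeR adjusted p = 0.00818). Ccl2 had a difference of -1.05 (adjusted p = 0.0446), Kcnj16 of -0.90 (adjusted p = 0.0214), Mvd of 0.88 (adjusted p = 0.0404) and Arf5 of 0.88 (adjusted p = 0.0446). Trp53, which encodes p53 and is named here after its values were seen, had a basal deviation of 0.70 and an insulin deviation of -0.34, a difference of 1.04 (adjusted p = 0.00818). With the GC and length offset the difference was called for 1 gene above and 2 below.

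Levels after insulin are given beside those of basal DKD cells as a description. Across all 14 insulin-treated libraries Kdm6a was between 88.7 and 110.5 CPM, against 78.1 to 92.9 CPM in basal DKD cells and 127 to 186 CPM in the other 12 basal libraries. Ccl2 was between 724 and 1050.1 CPM after insulin, overlapping basal DKD and below the other 12 basal libraries (1069 to 1815 CPM). Ptbp1 was between 406 and 521 CPM, overlapping basal DKD and above the other 12. For Mvd, by contrast, all insulin-treated libraries (213 to 271 CPM) lay above all basal ones.

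By chromosome, genes of the X were more often below than above the sum. It carries 367 of the tested genes (3.23%), of which 7 were above the sum and 39 below, with a median of -0.14. Among all tested genes 6.8% were above and 5.56% below, and with the offset 1.35% and 1.16%. Median GC content of the genes on the X was 46.4%, and with the offset their counts were 8 and 7 and the median was -0.02. Of the 33 genes with a called difference from insulin 6 were on the X, among them Kdm6a and Eif2s3x, both known to escape X inactivation. Eif2s3x (chrX:94188707-94212862), a subunit of translation initiation factor eIF2, was at 29.8, 68.3, 62.3 and 50.5 CPM in Control, 69, 85.5, 83 and 69.8 CPM in FoxK1 KD, 80.3, 71.1, 59.7 and 64.4 CPM in FoxK2 KD, and 36.5, 46.5, 31.9 and 35.2 CPM in DKD cells. Apart from Control replicate 1, which was the lowest of all, DKD libraries were below all others. The deviation was -1.39 (SE 0.22, edgeR adjusted p = 0.00039), -1.22 (adjusted p = 0.00117) with the offset and -1.22 (adjusted p = 8.24e-05) without that library.

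By gene type, 744 of 10683 protein-coding genes were above the sum and 608 below, beside 6.8% and 5.56% of all tested genes. Processed pseudogenes had 17 above and 0 below of 192, with a median deviation of 0.52, and 13 above with the offset, where 1.35% of all genes were above. DKD libraries also had the highest pseudogene share of the basal libraries, and its part in these calls was not tested. Gm43712, an unprocessed pseudogene, was at 17.8, 6.98, 5.09 and 11 CPM in DKD and between 0.926 and 2.84 CPM in the other 12 libraries, a deviation of 3.23 (SE 0.60, edgeR adjusted p = 0.00152). The antisense transcript Gm15564 had 3.19 (SE 0.80, adjusted p = 0.00968), with 399 CPM in Control replicate 1 and 0 to 95.6 CPM in the other 15 libraries, and without that library 1.96 (adjusted p = 0.0429). Whether counting used strand is not given in the sources used here.

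The lowest called deviation belonged to a small nucleolar RNA, and its sequence is shown because such a transcript is short against the reads of an mRNA library. Snord49a lies at chr11:62603450-62603521 on the plus strand (GRCm38, GENCODE M21, 72 bases). It is a box C/D RNA, a class that guides methylation of ribosomal RNA, and the letters TGATGA of box C and CTGA of box D are in capitals.
Snord49a: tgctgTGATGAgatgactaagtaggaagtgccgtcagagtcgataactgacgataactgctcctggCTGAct
It was at 7.66, 19, 9.68 and 20.5 CPM in Control, 41.6, 33.3, 12.5 and 16.1 CPM in FoxK1 KD, 28.1, 16, 14.5 and 22 CPM in FoxK2 KD, and 2.87, 4.36, 6.48 and 8.73 CPM in DKD cells. DKD overlapped Control in 1 library and was below both single knockdowns. The deviation was -2.63 (SE 0.63, edgeR adjusted p = 0.00784; -2.41 and adjusted p = 0.00948 with the offset), and after insulin it was 1.60 (SE 0.67, adjusted p = 0.924), a called difference of -4.23 (adjusted p = 0.0426). Reads of the gene that hosts a small nucleolar RNA can fall on the same bases, so its level is uncertain.

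The forkhead core motif was searched in promoters as a description. The letters GTAAACA, or TGTTTAC on the other strand, occurred in the 250 bases before the start of 1040 of 32851 RefSeq promoters (3.17%) and of 241 of 8740 tested genes (2.76%). They occurred in 8 of 582 genes above the sum with a promoter entry (1.37%) and in 9 of 498 below it (1.81%). These letters are poor in G and C, a part of GC content in these shares was not tested, and a match is not a binding site.

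**Figure D5:**
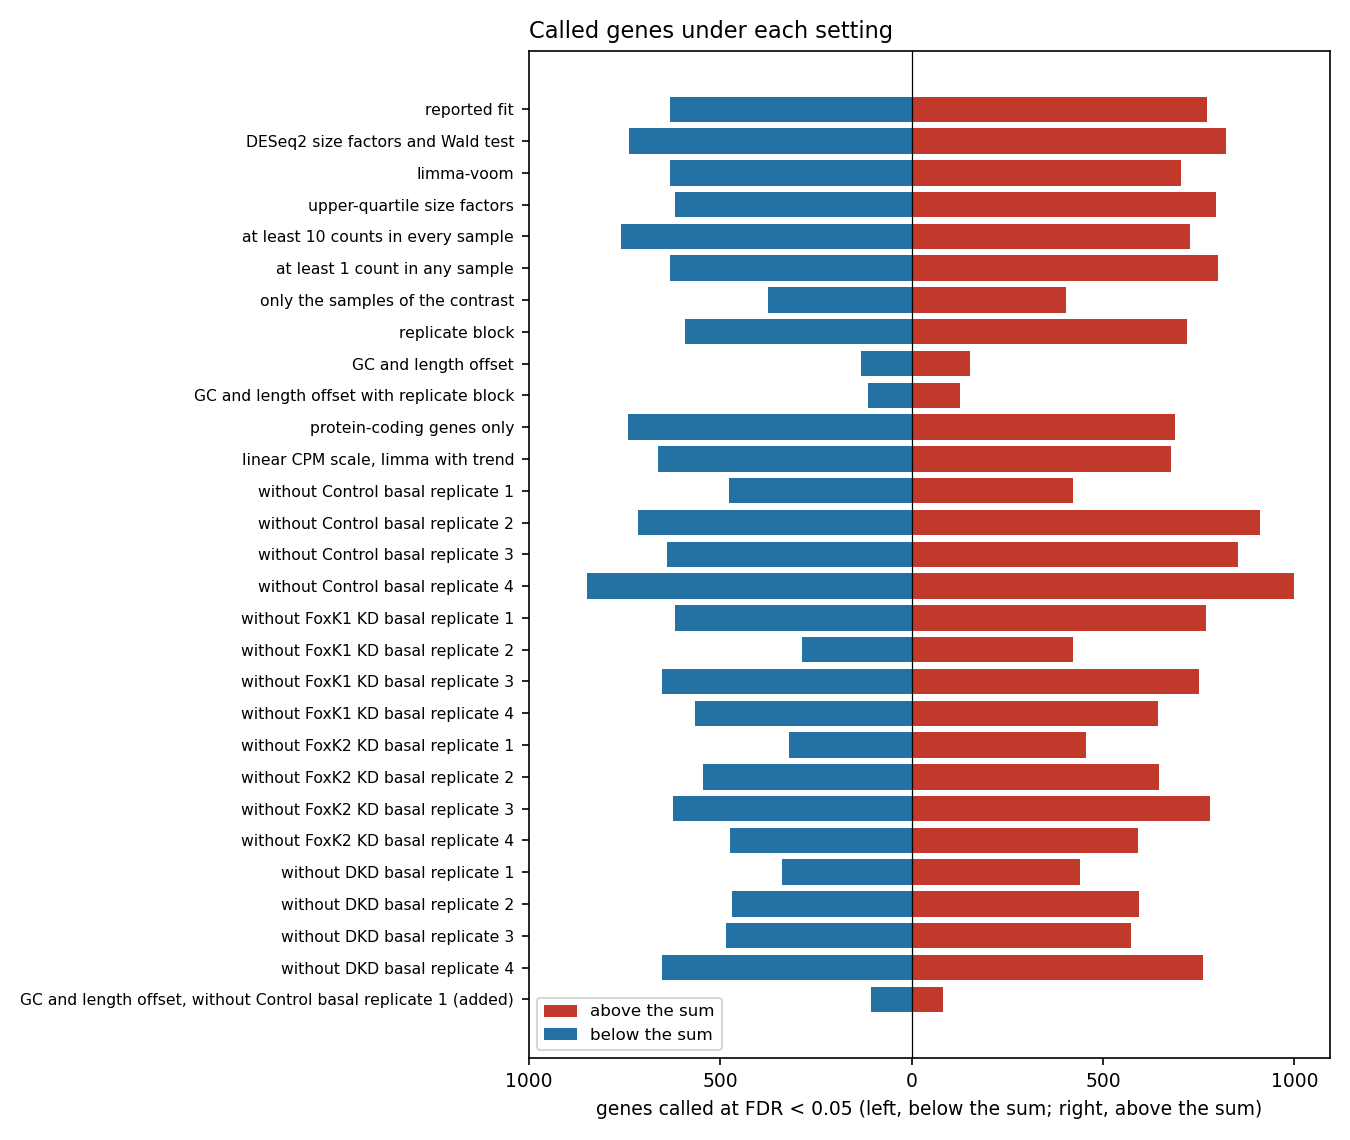
Number of genes called at an adjusted p under 0.05 below the sum (blue, to the left) and above it (red, to the right) in the analysis as reported and under each alternative, including each basal library left out in turn. The reported counts are 632 and 773, and the shortest bars are those with the GC and length offset alone (132 and 153), with the offset and replicate block (115 and 127), and with the offset and without Control replicate 1 (107 and 81).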

How the data were processed

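RNA-seq of AML12 cells was analysed in 30 samples of 8 groups, of which the 16 basal samples enter the contrast. Per the labels and methods, RNA was sequenced as NEBNext mRNA libraries on an Illumina HiSeq, and the submitters' processing notes name CASAVA 1.8, STAR 2.4.2a, featureCounts and GRCm38.p4. The authors deposited raw counts: whole numbers of reads per gene and sample, not normalized. Gene symbols, positions, GC content and length were taken from GENCODE M21 (GRCm38) by identifier; 99.8% of tested genes had a GC value. Promoter entries came from RefSeq (GRCm38.p6).

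Genes were filtered with filterByExpr, normalized by TMM and tested with edgeR 4.0.16 (glmQLFit, glmQLFTest) in a single model of 8 groups, with Benjamini-Hochberg adjustment over all 11368 genes and a threshold of 0.05 without a fold minimum. The model shares 1 estimate of the spread over all 30 samples. The study's methods name limma for genes and do not state this contrast, so limma-voom (3.58.1) was an alternative beside DESeq2 (1.42.0). SE was taken as the absolute log2 value divided by the square root of F, and 95% intervals used a t quantile with 22 residual degrees of freedom. CPM used TMM-adjusted totals. The offset removed splines with 5 degrees of freedom on GC content and on length from each sample.

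Basal totals were 2141460 to 5668270 counts, which limits precision mainly for genes of low counts. No pair of samples in a basal group was a copy (over 24 pairs, the chi-square divided by its degrees of freedom was at least 1.92). Counts of the lists were not tested. Named genes were Foxk1 and Foxk2, the 12 largest deviations of each sign and the 5 smallest p of each sign among called protein-coding genes with a mean log2 CPM of at least 3, the 3 largest of each sign among other types with at least 1, the genes the study names, and the largest called of each sign per list. Some genes that meet this rule are not reported here. Members and lists were chosen with earlier results of these data known. Alternatives were other tests, size factors, filters, thresholds and scales, a replicate block, the offset and leaving out each sample. Further tools were Python 3.11.15 with numpy 2.4.6, matplotlib 3.10.9, scipy 1.17.1 and pandas 2.3.3, and R 4.3.3.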

Additional observations from a re-analysis of the deposited data

Results flagged for a closer look

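In groups of 4 libraries, the highest or lowest value was marked when its gap to the nearest other library exceeded Dixon's 95% critical share of the group's range. Chance marks about 1 in 20 groups, and 14 of 152 checks were marked, 6 of them for Control replicate 1. In Control replicate 1, Tuba1b was at 422 CPM, Ptms at 1437 CPM and Ccdc124 at 24.1 CPM, above the other Control libraries, while Smim10l1 was at 109 CPM and Trip11 at 30.3 CPM, below them. The rank correlation of that library with GC content was 0.18. In FoxK1 KD replicate 2, Ndufb7 was at 12.5 CPM, Zfp758 at 14.9 CPM, Mvd at 93.1 CPM and Tspo at 161 CPM, each apart from the rest of its group, and the correlation with GC content was -0.50. In Control replicate 3 Khk, ketohexokinase, was at 18.6 CPM. In FoxK2 KD replicate 1 Tspo was at 249 CPM and the rank correlation with gene length was 0.21.

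The deviation differed between basal and insulin-treated cells, by a test of the difference itself (basal minus insulin, log2, edgeR adjusted p under 0.05), for 8 of the genes named by rule. These were Fam173a (1.90), Mvd (0.88) and Arf5 (0.88), which were above the sum in basal cells, and Eif2s3x (-1.54), Kdm6a (-1.14), Ccl2 (-1.05), Kcnj16 (-0.90) and Snord49a (-4.23), which were below it. Over all genes the GC and length offset left 1 called difference above and 2 below. Without 1 library there were 2 to 82 above and 1 to 76 below.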

How the results depend on the processing

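Counts above and below the basal sum (773 and 632) stayed within 1.5 times under DESeq2 (822 and 739), limma-voom (703 and 631), upper-quartile factors, either low-count filter, protein-coding genes only, the linear scale (678 and 663) and the replicate block (720 and 591). With the GC and length offset they were 153 and 132 (opposite 203, less than the sum 71, more than the sum 11), with offset and replicate block 127 and 115 (174, 58 and 10), and with the offset and without Control replicate 1, chosen after seeing the data, 81 and 107 (137, 37 and 14). With only the 16 basal samples fitted they were 403 and 374 (627, 115 and 35). An adjusted p under 0.25 gave 2268 and 1927 (2716, 972 and 507), and with a fold above 1.5 it gave 436 below and 56 more than the sum. The insulin contrast gave 7 above and 6 below with at least 1 count in any sample. The difference from insulin, 15 above and 18 below, was 99 and 93 under DESeq2, 166 and 137 with at least 1 count in any sample, 956 and 828 at 0.25, 732 and 440 at 0.25 with the fold minimum, 9 above with protein-coding genes only, 1 and 2 with the offset and 1 and 3 with offset and block, and could not be had from the basal samples alone. Without 1 library, counts ranged from 421 to 1000 above, 286 to 849 below, 564 to 1262 opposite, 81 to 520 less and 23 to 126 more than the sum, 0 to 0 after insulin, and 2 to 82 above and 1 to 76 below for the difference.

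Of 104 named genes the offset kept the direction and side of the threshold for 47, ended the call for 51, made 3 new calls and reversed 3: Mfn2 (-0.093), Scd1 (-0.025) and mt-Nd6 (0.084), none of them called in the analysis as reported. With offset and block these were -0.085, -0.026 and 0.087. With the offset and without Control replicate 1, Mfn2 was -0.13, Aff4 0.014, Tomm22 -0.00049, Scd1 -0.016 and Srebf1 -0.0032. Without 1 library Tomm22 ranged from -0.012 (FoxK1 KD replicate 3) to 0.19, with -0.0070 without Control replicate 1. Wdr45 was 4.93 CPM on the linear scale, and ranged from -0.13 to 0.054 without 1 library, above 0 without Control replicates 2 and 4 or FoxK2 KD replicate 4. Over 1664 pairs of a named gene and a fit that left out 1 basal library, 161 lost a call, 12 gained one and 5 reversed.

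No pairing by replicate number was seen in the values. Deviations from group means correlated at -0.017 on average over 24 pairs of equal number, against 0.0047 over 72 others. Of 16 samples, 0 correlated best with its own number. Such values cannot show whether equal numbers shared a culture or day, which the labels do not say. Depth limits genes of few counts, and the cause of the losses under the offset was not tested.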
